A study of Drosophila melanogaster with 24 samples.

Results

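Fatty acid oxidation was followed through the transcripts of 6 fruit fly genes that act on the path of a fatty acid into and through mitochondria and peroxisomes. They are whd, CPT2, Mtpbeta, scu, Acox57D-p and Acox57D-d, and they were taken from a list of 8 genes of the pathway. A gene was kept where the array's annotation assigned a probe set, a group of short probes read as 1 value, to that gene alone. This gave 7 probe sets of 6 genes, out of 13647 such probe sets of 11982 genes. Mcad, an acyl-CoA dehydrogenase, and Mtpalpha, the alpha subunit of the trifunctional protein, had no probe set of their own in the annotation used and are not analysed here.

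A long-chain fatty acid enters the mitochondrion as an acyl-carnitine. Carnitine palmitoyltransferase 1, the product of whd, makes the acyl-carnitine at the outer membrane and sets the pace of entry, and CPT2 turns it back into acyl-CoA inside. Each round of beta oxidation then removes acetyl-CoA through a dehydrogenase, a hydratase, a hydroxyacyl-CoA dehydrogenase and a thiolase. Peroxisomes run a similar spiral on very long chains, which begins with acyl-CoA oxidases and yields hydrogen peroxide. In adult flies these pathways burn stored fat, chiefly in fat body, muscle and oenocytes, and whd mutants are known for sensitivity to starvation.

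The 24 arrays measured RNA from whole adult Drosophila melanogaster of both sexes, 0 to 3 days old and cultured at 25 C. They asked what raising or lowering Hr96 does to transcript levels. Hr96 encodes the nuclear receptor DHR96, which is known to regulate detoxification genes and the handling of dietary fat and cholesterol. There were 8 groups of 3 arrays, 4 genotypes in each sex, and the replicate number marks 1 of 3 diet batches of the same rich recipe, made on different days. All flies carried the eye colour mutation w and 1 GAL4 driver, a yeast transcription factor that switches on any transgene behind a UAS sequence. Over-expression flies were w; Act5C-GAL4/UAS:OE_Dhr96OE_35, and their controls were w; Act5C-GAL4/+. Knockdown flies were w; arm-GAL4/+; UAS:RNAi_Dhr96Hp_3/+, and their controls were w; arm-GAL4/+. Act5C and arm are promoters active in most cells, and each transgene was represented by 1 line. The labels call the replicates biological but do not give the number of flies in a sample, so p-values measure the spread between these samples.

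Values are log2 of the deposited intensity. The 18769 probe sets that are not controls were tested together with limma, and a difference was called where the p adjusted over all of them was under 0.05. Array medians ran from 53.5 to 66.3 on the linear scale, lower in females (53.5 to 60.9) than in males (63.4 to 66.3). Precision is limited by having 3 arrays in a group. Hr96 rose with over-expression by 1.40 in females (SE 0.31, limma adjusted p = 0.0333) and by 2.09 in males (SE 0.31, adjusted p = 0.000739). It did not fall in the flies labelled knockdown, where it differed from the control by 0.17 in females and -0.14 in males (SE 0.31 each, adjusted p = 0.989 and 1.00), so that genotype is named below by its label only.

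whd, the gate of mitochondrial entry, was higher in over-expression flies of both sexes. In females its log2 intensity was 10.12, 10.40 and 10.24 with over-expression and 9.53, 9.65 and 9.23 in the Act5C-GAL4 control. Females labelled knockdown were at 9.77, 9.62 and 9.63 and the arm-GAL4 control at 9.69, 9.50 and 9.70. The 3 over-expression females thus lay above all 9 females of the other genotypes, a pattern shared by 3.67% of all probe sets. In males the values were 9.45, 9.74 and 9.44 with over-expression and 9.0, 9.19 and 8.85 in the Act5C-GAL4 control. Males labelled knockdown were at 8.88, 9.24 and 9.01 and the arm-GAL4 control at 8.66, 8.94 and 8.95. The over-expression males again lay above the 9 others, as did 1.7% of probe sets. In whole animals, a change in the number of cells of a type and a change in RNA per cell cannot be told apart.

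The mean difference of whd from the Act5C-GAL4 control was 0.78 in females (SE 0.14, 95% interval 0.50 to 1.07, limma adjusted p = 0.00594), a 1.72-fold rise. It was 0.53 in males (SE 0.14, interval 0.25 to 0.82, adjusted p = 0.0577), which missed the threshold, and 0.0308 with the diet batch as a block. Over both sexes whd rose by 0.66 (SE 0.10, limma adjusted p = 0.00039), 1.58-fold. Arrays matched by diet batch differed by 0.59 to 1.01 in females and 0.46 to 0.59 in males. Their sign was fixed, because the groups did not overlap in either sex. The female call was lost without over-expression replicate 2 (adjusted p = 0.0506) or control replicate 3 (0.0663), and in a fit of the compared arrays alone (0.174). The mean over both sexes stayed called without any 1 of its 12 arrays, at 0.60 to 0.70. The over-expression male with the lowest Hr96, replicate 2 at 7.61, had the highest whd of its group, and without that array the male difference was 0.44 (adjusted p = 0.305). whd had a second, dim probe set at 4.38 to 5.15, close to the lower quartile of the arrays (4.38 to 4.64). It differed by -0.25 in females and 0.38 in males (adjusted p = 0.463 and 0.319), so in females its sign was opposite. Its groups did not overlap in females, as for 15.7% of probe sets, and overlapped in males. Averaged with it, whd differed by 0.27 in females (adjusted p = 0.219) and was called in males.

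**Figure D1:**
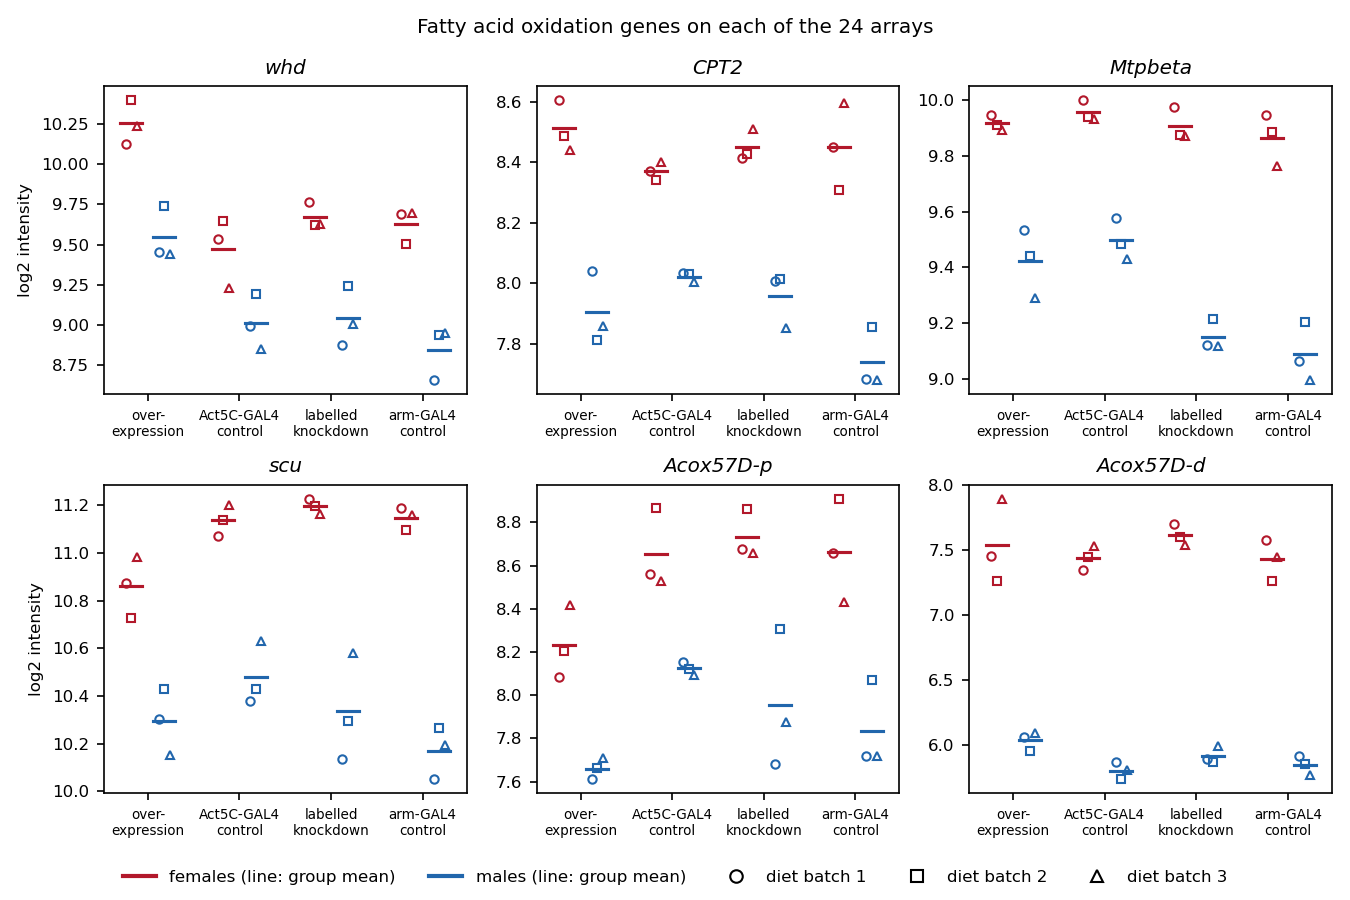
Log2 intensity of the 6 genes (vertical axis, 1 scale per gene) on each of the 24 arrays, by genotype (horizontal axis), with females in red, males in blue, symbols for diet batches and lines for group means. whd stands highest in over-expression flies of each sex, at 10.12 to 10.40 in females and 9.44 to 9.74 in males, and among females Acox57D-p is lowest with over-expression, at 8.08 to 8.42.

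CPT2, which completes the carnitine shuttle at the inner membrane, was not called with over-expression. Females had 8.61, 8.49 and 8.44 against 8.37, 8.34 and 8.40 in the control, groups that did not overlap. The difference was 0.14 (SE 0.10, limma adjusted p = 0.501). Males had 8.04, 7.81 and 7.86 against 8.03, 8.03 and 8.0, which overlapped, a difference of -0.12 (SE 0.10, adjusted p = 0.632).

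Mtpbeta encodes the thiolase subunit of the trifunctional protein, the complex that handles long chains at the inner membrane. It differed by -0.04 in females and -0.08 in males with over-expression (SE 0.09 each, limma adjusted p = 0.879 and 0.763). The 95% intervals, -0.24 to 0.16 and -0.27 to 0.12, leave out changes of the size whd showed.

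scu encodes a mitochondrial hydroxyacyl-CoA dehydrogenase, the third step of a round. Over-expression females were at 10.87, 10.73 and 10.98 and their controls at 11.07, 11.14 and 11.20. These 3 females lay below all 9 others, which ran from 11.07 to 11.23, a pattern shared by 2.98% of probe sets. The difference of -0.28 (SE 0.12) was not called (limma adjusted p = 0.251). In males the groups overlapped, at 10.15 to 10.43 against 10.38 to 10.63, and the difference was -0.18 (SE 0.12, adjusted p = 0.51). Over both sexes scu differed by -0.23 (SE 0.08, adjusted p = 0.182), also not called.

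The acyl-CoA oxidases Acox57D-p and Acox57D-d take the first peroxisomal step. They are direct neighbours in the Release 6 gene table, with 0 protein-coding genes between them. Acox57D-p was lower with over-expression than in the Act5C-GAL4 control. Females had 8.08, 8.20 and 8.42 against 8.56, 8.87 and 8.53 in the Act5C-GAL4 control, and the 6 arrays of the arm-GAL4 genotypes ran from 8.43 to 8.91. The 3 over-expression females therefore lay below the 9 others, as did 2.98% of probe sets, though narrowly (8.42 against 8.43). Males had 7.61, 7.66 and 7.71 against 8.16, 8.12 and 8.10, which did not overlap, but arrays of the arm-GAL4 genotypes reached down to 7.68. The arm-GAL4 control males, at 7.72, 8.07 and 7.72, also lay below the Act5C-GAL4 control males.

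Acox57D-p differed by -0.42 in females and -0.46 in males (SE 0.15 each), neither of which was called by limma (adjusted p = 0.191 and 0.186). Over both sexes it fell by 0.44 (SE 0.11, limma adjusted p = 0.0356), to 1.36-fold lower. It was lower in 6 of 6 same-batch pairs, which was fixed by groups that did not overlap in either sex. The mean difference over both sexes kept to -0.39 to -0.49 when any 1 of the 12 arrays was left out. The call was lost in 9 of those 12 fits. Without over-expression females replicate 1 or 2 the adjusted p was 0.0886 or 0.0823, and without over-expression males replicate 1, 2 or 3 it was 0.0799, 0.0587 or 0.062. Without control males replicate 1, 2 or 3 it was 0.0568, 0.0695 or 0.0765, and without control females replicate 2 it was 0.109.

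Its neighbour Acox57D-d did not follow it. Males had 6.06, 5.95 and 6.09 with over-expression and 5.87, 5.74 and 5.81 in the control, higher without overlap, and the difference of 0.23 (SE 0.13) was not called (limma adjusted p = 0.445). Females had 7.46, 7.26 and 7.89 against 7.35, 7.45 and 7.53, a difference of 0.09 (SE 0.13, adjusted p = 0.762). Over both sexes it differed by 0.16 (SE 0.09, adjusted p = 0.421), opposite in sign to Acox57D-p; the difference between the neighbours was not tested.

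Among the 6 genes, then, 1 was called higher and 0 lower in females, where 0.586% of all probe sets were called higher and 0.288% lower. In males limma called 0 of 6, against 1.17% of probe sets. At an unadjusted p under 0.05 there were 2 in males, whd and Acox57D-p, against 12.8%. In females there were 3, whd, scu and Acox57D-p, against 16.4%. Over both sexes 1 was called higher and 1 lower, against 0.932% and 0.948%. Groups were apart without overlap for 4 of 6 genes in females and 3 of 6 in males, against 15.7% and 21.4% of probe sets. The effect did not pass a test of difference between sexes in limma for any of the 6 genes (0.165% of probe sets were called), and 0 of 6 had an unadjusted p under 0.05 (14.5%). For whd the female effect minus the male effect was 0.25 (95% interval -0.15 to 0.65).

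**Figure D2:**
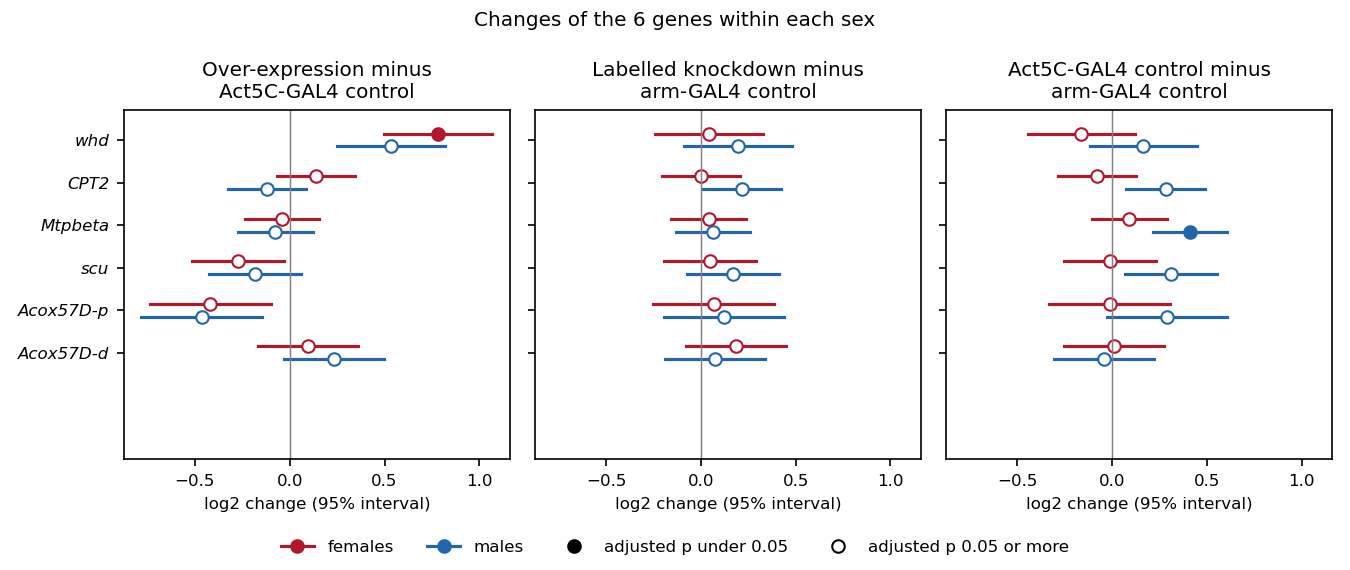
Log2 changes of the 6 genes (horizontal axes) with 95% intervals, in females (red) and males (blue), for over-expression against its control, labelled knockdown against its control, and the Act5C-GAL4 control against the arm-GAL4 control. Filled points have a limma adjusted p under 0.05, which are whd at 0.78 in over-expression females and Mtpbeta at 0.41 between the control males.

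Marker genes of other tissues were measured on the same arrays. The summed intensity of 4 flight muscle genes was 14.65 to 14.95 (log2) in over-expression females and 13.13 to 14.20 in their controls. Females of the arm-GAL4 genotypes ran from 12.65 to 13.69, so over-expression females lay above the 9 others. Against the controls 0 of 4 genes were called, with a median difference of 1.26. In males the flight muscle sums overlapped, at 13.90 to 14.70 against 13.64 to 14.65. The 3 measured ovary germline genes differed by -0.48 to -0.75 in over-expression females, 0 of 3 called. In males the germline gene osk was at 3.82 and 4.06, below the lower quartile of every array. Of 3 oenocyte genes, Cyp4g1 and FarO, which serve cuticular hydrocarbon and fatty alcohol synthesis, fell by 0.81 and 1.47 in over-expression males (limma adjusted p = 0.00133 and 0.00198). In females Cyp4g1 was at 12.91 against 13.40, below all 9 other females, but was not called (adjusted p = 0.0829). Oenocyte sums are mostly Cyp4g1 and did not overlap in either sex. They were at 12.94 to 13.06 against 13.29 to 13.77 in females and 12.76 to 13.18 against 13.48 to 13.94 in males. FarO overlapped in females, at 5.65 to 6.55 against 5.77 to 6.64, and the third gene, eloF, was not called in either sex. The blood cell gene NimC1 was higher over both sexes by 0.55 (limma adjusted p = 0.0362), and over-expression females, at 6.07 to 6.43, lay above the 9 others. The other blood cell gene, Hml, differed by -0.21 and was not called. Testis sums in over-expression males were 12.98 to 13.30 against 12.50 to 12.78, without overlap, with 0 of 4 genes called. Fat body sums were 13.60 to 13.66 against 13.58 to 13.63 in females and 12.84 to 13.34 against 13.38 to 13.82 in males. The part of these tissues in the differences of whd and Acox57D-p was not tested.

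The remaining steps of fatty acid oxidation were followed through 7 lists. Of 49 measured genes (activation and carnitine shuttle, acyl-CoA dehydrogenases, hydratases to thiolases, peroxisomal oxidation, peroxins, regulators, citric acid cycle), 0 were called higher and 2 lower over both sexes, beside 0.932% and 0.948% of all probe sets. Those were CG4592, of the hydratase and isomerase list, which fell by 0.47 (limma adjusted p = 0.0454), and Pex2, a ubiquitin ligase of the peroxisomal import machinery, which fell by 0.40 (adjusted p = 0.0467). In males alone CG4592 was called, at 7.0 to 7.5 with over-expression and 7.88 to 8.15 in the control, a fall of 0.72 (adjusted p = 0.0393). It was the only 1 of 49 called in males, beside 1.17% of probe sets. In females limma called 0 of 49. At an unadjusted p under 0.05 there were 9 in females and 10 in males, beside 16.4% and 12.8% of probe sets. Changes were positive for 24 of the 49 genes in females, 11 in males and 15 over both sexes. The medians over all probe sets were -0.04, 0.0275 and 0.0008.

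Beside whd, the 7 genes of activation and carnitine shuttle had a median change of -0.0088 over both sexes and ran from -0.37 to 0.36, none called. The median over all probe sets was 0.0008. In females the 7 genes had a median of 0.25, and hll, an acyl-CoA synthetase, differed by 0.78 with a wide error (SE 0.37, limma adjusted p = 0.297). The 5 genes of the peroxisomal oxidation list ran from -0.20 to -0.12, none called. The 4 measured citric acid cycle genes, a reference for mitochondrial transcripts, ran from 0.24 to 0.34 over both sexes and from 0.40 to 0.53 in females, none called.

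**Figure D3:**
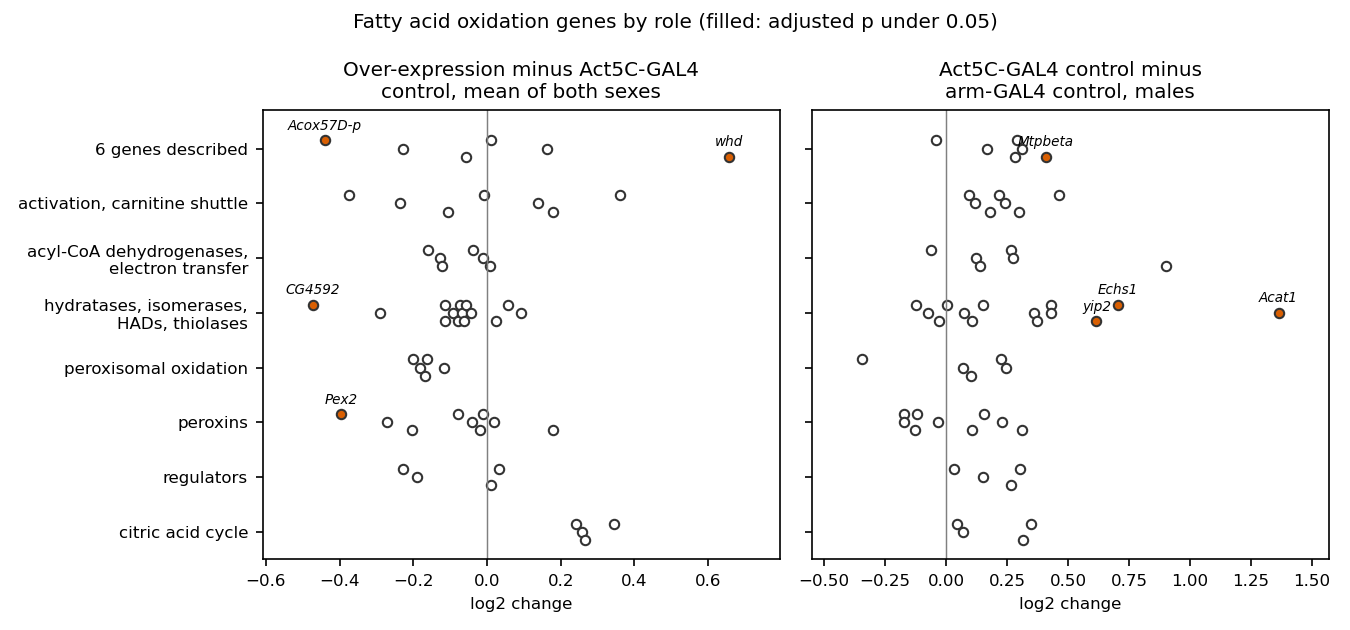
Log2 change (horizontal axes) of the 6 genes and of 49 further genes of the pathway by role (rows, 1 point per gene), for over-expression against its control over both sexes and for the Act5C-GAL4 against the arm-GAL4 control males. Filled, named points have a limma adjusted p under 0.05: 4 on the left, with whd at 0.66 and Acox57D-p at -0.44, and 4 on the right, with Acat1 highest at 1.36.

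In flies labelled knockdown, 0 of the 6 genes were called by limma in females, males or over both sexes, where 0.0213%, 0.0266% and 0.0586% of all probe sets were called. At an unadjusted p under 0.05 there were 0 in females, 1 in males and 0 over both sexes, against 4.24%, 2.18% and 3.31%. The groups of all 6 genes overlapped in each sex, while 9.05% of probe sets in females and 5.8% in males did not. whd differed by 0.04 in females (95% interval -0.24 to 0.33) and 0.20 in males (-0.09 to 0.48). CPT2 differed by -0.0003 in females (-0.21 to 0.21) and 0.22 in males (0.01 to 0.42, adjusted p = 1.00). Acox57D-p differed by 0.07 (-0.25 to 0.39) and 0.12 (-0.20 to 0.44). Over all 6 genes the intervals ran from -0.25 to 0.45 in females and from -0.20 to 0.48 in males. Of the 49 further genes, 0 were called in either sex, with 2 in females and 1 in males at an unadjusted p under 0.05. No gene's effect was called as different between sexes (0.032% of probe sets were), with 0 of 6 at an unadjusted p under 0.05 (2.73%).

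The control genotypes, which carry no Hr96 transgene and differ in their driver, were set against each other. Mtpbeta was higher in Act5C-GAL4 control males than in arm-GAL4 control males. Its values were 9.58, 9.49 and 9.43 against 9.06, 9.20 and 8.99, groups that did not overlap. The difference was 0.41 (SE 0.09, limma adjusted p = 0.0414), 1.33-fold, and Mtpbeta was the only 1 of the 6 genes called, where 0.32% of probe sets were called higher. CPT2, scu and Acox57D-p also had higher Act5C-GAL4 males without overlap, so 4 of 6 genes did, against 5.99% of probe sets. Their differences were 0.28, 0.31 and 0.29 (adjusted p = 0.285, 0.335 and 0.576). The Mtpbeta call was lost in a fit of the compared arrays alone (0.358), under a median shift (0.0549), with a trended and robust prior (0.0765) and with array weights (difference 0.33, adjusted p = 0.078). It was also lost without Act5C-GAL4 control males replicate 1, 2 or 3 (0.212, 0.0952 and 0.0869) or arm-GAL4 control males replicate 1 or 3 (0.145 and 0.143).

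Further genes of the later steps of the mitochondrial spiral were called between these males. Of 49 genes 3 were higher, beside 0.32% of probe sets, and 0 lower, all 3 from the list of hydratases, isomerases, hydroxyacyl-CoA dehydrogenases and thiolases. Changes were positive for 39 of the 49 genes and for 5 of the 6, where the median over all probe sets was -0.0148. Acat1, the thiolase that acts on acetoacetyl-CoA, was at 9.26 to 9.46 against 7.84 to 8.23, a rise of 1.36 (SE 0.14, limma adjusted p = 6.5e-06). Echs1, a short-chain enoyl-CoA hydratase, was higher by 0.70 (adjusted p = 0.00437) and yip2, a ketoacyl-CoA thiolase, by 0.62 (adjusted p = 0.0268).

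Over-expression males share the Act5C-GAL4 driver and males labelled knockdown share arm-GAL4. In a comparison chosen after seeing the data, the 6 Act5C-GAL4 males ran from 9.29 to 9.58 for Mtpbeta and the 6 arm-GAL4 males from 8.99 to 9.21. They did not overlap, as was the case for 1.13% of probe sets in that direction. Acat1 was at 8.84 to 9.46 against 7.71 to 8.23, yip2 at 9.91 to 10.42 against 9.26 to 9.65 and Echs1 at 10.19 to 10.61 against 9.57 to 10.10, also without overlap. These genes and Mtpbeta were named for their calls between the control males. Those males are among the arrays compared here, so part of the separation was fixed by that choice. The other 5 of the 6 genes overlapped. Driver insertion and genetic background cannot be told apart here. Flight muscle sums were 13.64 to 14.65 in Act5C-GAL4 and 13.19 to 13.81 in arm-GAL4 control males, and their part was not tested.

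In females 0 of 6 genes were called between the controls (0.17% of probe sets were), 0 at an unadjusted p under 0.05 in limma (3.95%). Of the 49 further genes 0 were called and 1 had an unadjusted p under 0.05. Acat1 was at 9.46 to 9.72 in Act5C-GAL4 control females and 9.20 to 9.29 in arm-GAL4 control females. The groups of yip2 (10.19 to 10.37 against 9.92 to 10.21) and Echs1 (10.92 to 11.11 against 10.65 to 10.95) overlapped. Mtpbeta was at 9.93 to 10.00 against 9.76 to 9.95, a difference of 0.09 (SE 0.09, adjusted p = 1.00). The female minus the male difference of Mtpbeta, -0.32 (95% interval -0.60 to -0.04), was not called (adjusted p = 1.00). That test was added after seeing the data, and it called 0 of the 6 genes and 0.0852% of probe sets. At an unadjusted p under 0.05 there were 2 of 6, Mtpbeta and CPT2, against 4.4%.

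**Figure D4:**
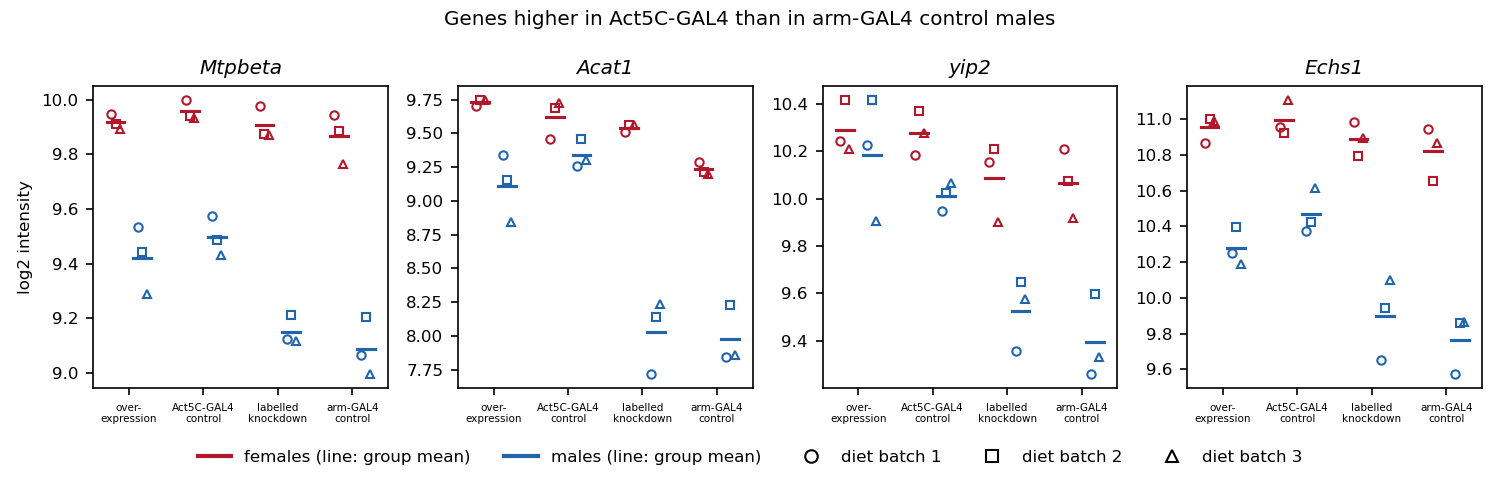
Log2 intensity (vertical axes) of Mtpbeta, Acat1, yip2 and Echs1 on each array by genotype (horizontal axes), with females in red, males in blue, symbols for diet batches and lines for group means. In males the Act5C-GAL4 genotypes on the left lie above the arm-GAL4 genotypes on the right without overlap, for Acat1 at 8.84 to 9.46 against 7.71 to 8.23.

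All 6 genes were higher in females than in males of the control genotypes. Acox57D-d differed most, by 1.61 (SE 0.09, limma adjusted p = 2.8e-13), a 3.06-fold difference. scu differed by 0.82 (SE 0.08), Acox57D-p by 0.68 (SE 0.11), whd and Mtpbeta by 0.62 each (SE 0.10 and 0.07) and CPT2 by 0.53 (SE 0.07), with adjusted p of 9.5e-06 or less. These calls stand against a background in which 44% of all probe sets were called higher in females. The median over the 6 genes was 0.65 and the median over all probe sets 0.20. A shift of each array to a common median raised the latter to 0.40, and it raises the 6 genes by the same amount.

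The direction held in every genotype. In each of the 4, the 3 females lay above the 3 males for all 6 genes, as did 37.3% of probe sets in over-expression flies, 41% in their Act5C-GAL4 control, 36.4% in the other control and 39.7% in the flies labelled knockdown. Acox57D-d was 2.83 to 3.24 times higher in females by genotype. Across all 24 arrays its females ran from 7.26 to 7.89 and its males from 5.74 to 6.09. CPT2 (8.31 to 8.61 against 7.68 to 8.04), Mtpbeta (9.76 to 10.00 against 8.99 to 9.58) and scu (10.73 to 11.23 against 10.05 to 10.63) also did not overlap, as was the case for 20.7% of probe sets. whd and Acox57D-p overlapped over all arrays, with male whd reaching 9.74 and female Acox57D-p reaching down to 8.08 in over-expression flies. The smallest sex differences of whd, CPT2, Mtpbeta and Acox57D-p were in the Act5C-GAL4 control (0.46, 0.35, 0.46 and 0.53), and this order was not tested.

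**Figure D5:**
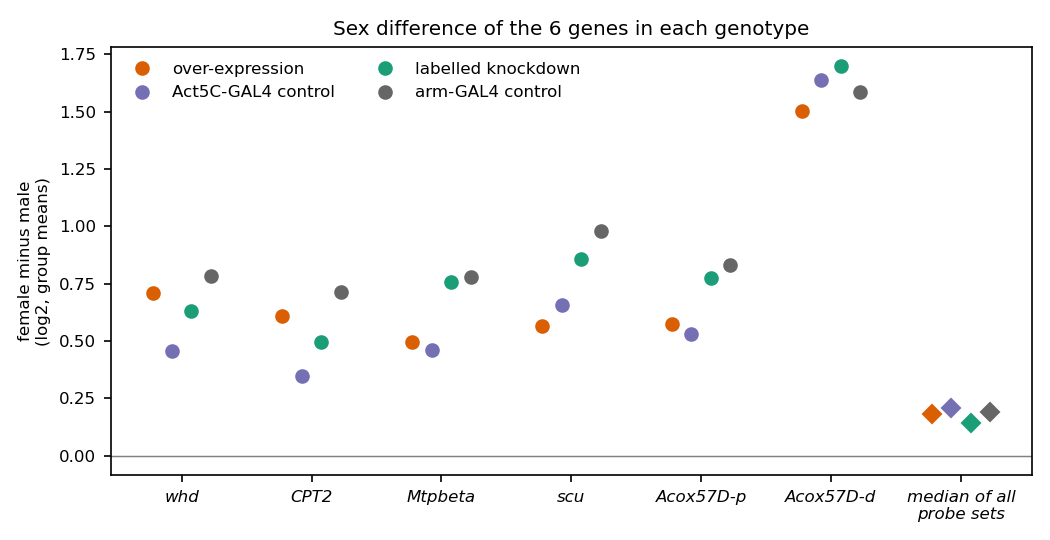
Female minus male difference of group means (vertical axis, log2) for each of the 6 genes and, as diamonds, the median of all 18769 probe sets, with 1 colour per genotype and no error bars. Every point of the 6 genes lies above the medians of all probe sets (0.14 to 0.21), and Acox57D-d stands highest at 1.5 to 1.7.

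The rest of the pathway was mostly higher in females too. Of the 49 further genes 32 were called higher in control females and 3 lower, beside 44% and 19% of all probe sets. All 6 measured genes of the acyl-CoA dehydrogenase and electron transfer list rose, among them CG6638 by 1.26, CG4860 by 0.99, Arc42 by 0.72 and Acadvl, the very long chain dehydrogenase, by 0.64. Of 14 hydratases to thiolases, 10 were higher, led by CG6984 (1.16), Dci (1.11) and CG8778 (1.07), and Had1, a hydroxyacyl-CoA dehydrogenase, was lower (-1.07). In peroxisomes CG4586, of the acyl-CoA oxidase family, was higher by 2.83, Acox3 by 0.42 and CG17544 by 0.31, with 2 of 5 not called. Of 9 peroxins 6 were higher, led by Pex2 (1.30), Pex14 (0.66), Pex16 (0.63) and Pex13 (0.59). In the carnitine shuttle list bgm, an acyl-CoA synthetase, was higher by 1.17, CROT, the octanoyltransferase, by 1.01 and hll by 0.66. CG5265 of the same list was lower in females, at 5.40 against 9.23. Of the regulators, foxo was higher by 0.74, Hnf4 by 0.58 and ERR by 0.34. The citric acid cycle genes were split, with Scsalpha1 higher by 0.28, mAcon1 lower (-0.19) and 2 of 4 not called.

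Sex-specific tissues separated these groups widely. The 3 yolk protein genes differed by 7.08 to 8.44 and the 3 ovary germline genes by 4.99 to 7.76, all called higher in females, and all 4 testis genes were called lower. The 4 flight muscle genes differed by -0.62 to -0.13, none called. The part of ovary and testis in the sex difference of the 6 genes was not tested.

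Diet batch moved none of the 6 genes past the threshold in limma's F test, where 2.02% of probe sets were called. At an unadjusted p under 0.05 there was 1 (17% of probe sets), Acox57D-p (limma adjusted p = 0.19), which was 0.23 higher in batch 2 than in batch 1. whd was 0.15 higher in batch 2 than in batch 1 (adjusted p = 0.388).

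The profiles most like each gene were sought among all other single-gene probe sets by Pearson's r over the 24 arrays after the mean of each sex was taken off. The arrays share their groups and their normalization, so r is a description. For whd they were Ugt36A1 (r = 0.84), CG11893 (0.83) and Lmpt (0.81), and for CPT2 they were CHOp24 (0.79), CRAT, the carnitine acetyltransferase (0.74), and CG9837 (0.71). Mtpbeta was most like the thiolases Acat1 (0.90) and yip2 (0.85), then TbCMF46 (0.84). scu was most like RpL34a (0.80), CG4598 of the isomerase list (0.80) and Nacalpha (0.80). Acox57D-p was most like Ythdf (0.84), Fic (0.83) and osk (0.83), and Acox57D-d was most like Nle (0.77), Traf4 (0.74) and Sod3 (0.74). No pair of the 6 genes was among these closest profiles.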

How the data were processed

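Biotin-labelled cRNA from whole adults was hybridised to Affymetrix arrays, per the labels. The authors used RMA, per the submitters' processing notes, which corrects background, normalizes arrays and summarises probes; any later scaling is not stated in those notes. What was deposited is linear intensity, although log2 had been assumed, so log2 was taken with no pseudocount and no further normalization. RMA compresses large differences.

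Groups follow the labels. limma 3.58.1 in R 4.3.3 (lmFit, eBayes) was fitted to 18769 probe sets, without 183 controls, on 24 arrays with 8 group means, 16 residual and 5.19 prior degrees of freedom and Benjamini-Hochberg adjustment. Where a gene had several probe sets, the one with the highest mean was used first. Genes, lists and tests were chosen with earlier results of these data known. Named genes were Hr96, the 6 members, called list genes (up to 4 per list and comparison) and the 3 closest profiles. The replicate number marks the diet batch, per the labels, so it pairs samples. Same-numbered deviations correlated at -0.07 to 0.57 and 9 of 12 were over 0.1. The rest were the pairs of over-expression females with their controls, at -0.03, -0.07 and 0.07. Alternatives were this block, the compared arrays, a minimum mean log2 of 5, a median shift, quantile normalization, a trended robust prior, array weights, 1 probe set per gene, the mean of a gene's probe sets, and leaving out each array. Steps were tested on simulated data. Figures used matplotlib 3.10.9.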

Additional observations from a re-analysis of the deposited data

How the results depend on the processing

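Of the 6 genes, the number called in over-expression males went from 0 to 1 with the diet batch as a block (replicate block), under a median shift, quantile normalization, array weights and the mean of a gene's probe sets, each time through whd. In over-expression females it went from 1 to 0 with the compared arrays alone and with the mean of a gene's probe sets. Between control males it went from 1 to 0 with the compared arrays alone, a median shift, a trended robust prior and array weights. With 1 array left out the counts were 1 to 2 for over-expression over both sexes, 0 to 1 in females and 0 to 1 between control males. Pairing by the block gave an adjusted p of 0.0308 for whd in over-expression males in limma and changed no other call of the 6 genes. Small, uncalled differences changed sign. CPT2 in labelled knockdown females was 0.0294 under a median shift and 0.0051 with array weights. For the over-expression effect in females minus males, Mtpbeta was -0.009 and -0.0215 under a median shift and quantile normalization, Acox57D-p -0.0537 under quantile normalization and scu 0.0112 with array weights. Mtpbeta was 0.0204 with array weights for the labelled knockdown effect in females minus males. Between control females Acox57D-d was -0.0264 and -0.0018 under a median shift and quantile normalization, and scu 0.0093 with array weights. The mean of its probe sets put whd at -0.0103 in labelled knockdown females, -0.1886 for the over-expression effect in females minus males, 0.0052 between control females and -0.0121 between control males. With 1 array left out, over-expression gave Acox57D-d -0.0838 to 0.2323 in females and CPT2 -0.0236 to 0.0335 over both sexes. Its female minus male effect gave Mtpbeta -0.0308 to 0.0915, Acox57D-p -0.0454 to 0.1534 and Acox57D-d -0.316 to 0.0. Control females gave scu -0.0422 to 0.0231, Acox57D-p -0.1298 to 0.1095 and Acox57D-d -0.0716 to 0.0862. Labelled knockdown females gave whd -0.0219 to 0.0737, CPT2 -0.072 to 0.0713, Mtpbeta -0.0099 to 0.0808 and Acox57D-p -0.0506 to 0.1888, and males gave Acox57D-p -0.0545 to 0.2589. Its female minus male effect gave Mtpbeta -0.081 to 0.0235, scu -0.2191 to 0.0017 and Acox57D-p -0.1919 to 0.1215. The causes were not tested. Over all probe sets, calls in over-expression females numbered 164, against 383 with the block and 12 with the compared arrays alone. In males they numbered 219, against 358, 101 and, with array weights, 664. With 1 array left out, the female count ran from 36 (without control replicate 3) to 723 (without over-expression replicate 3) and the male count from 90 (without control replicate 3) to 193, so the shares of all probe sets called move with single arrays.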
